A study of Homo sapiens with 7 samples.

Results

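H/ACA small nucleolar RNAs and small Cajal body RNAs were taken as every gene whose symbol starts with SNORA or SCARNA in the deposited per-library gene tables. The rule gave 175 genes of 60662, of which 150 were SNORA and 25 were SCARNA. They carried 171 distinct symbols, since SNORA17B, SNORA50A, SNORA16A and SCARNA4 each stood on 2 gene entries at nearly the same position. Total RNA was sequenced from human T-cell acute lymphoblastic leukaemia cell lines grown in RPMI medium with fetal bovine serum. PF-382 gave 3 libraries of cells in which STAG2, which encodes a subunit of cohesin, was targeted with a Cas9 and guide RNA ribonucleoprotein (here called knockout) and 2 libraries of wild-type cells. MOLT-14 gave 1 library after transduction of STAG2 and 1 after transduction of an empty vector. The labels do not say whether libraries of 1 group came from separate clones or cultures, so p values measure only the spread between these libraries, which may be technical.

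H/ACA RNAs fold into hairpins followed by an H box and an ACA box, and pair with a target RNA so that the enzyme dyskerin (DKC1) turns a chosen uridine into pseudouridine. In the nucleolus the targets are ribosomal RNAs. Dyskerin also binds the RNA subunit of telomerase, in a separate particle. Small Cajal body RNAs act in the Cajal body on spliceosomal RNAs, and some carry C/D domains that guide ribose methylation in place of, or beside, H/ACA domains. In human cells most of these RNAs are cut from introns of host genes.

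The sequences below, in DNA letters from GENCODE 29 transcripts on GRCh38, show the RNAs on which the results turn most. SNORA73A (chr1:28507366-28507571, plus strand) and SNORA73B (chr1:28508559-28508762, plus strand) are shown because they are near-identical copies, with 192 of 206 aligned positions the same, so that the split of reads between them is uncertain. Both belong to the U17 family, which is needed for early cleavage of the ribosomal RNA precursor. SNORA48 (chr17:7574713-7574847, plus strand), SNORA2C (chr12:48654382-48654518, minus strand) and SNORA8 (chr11:93732361-93732499, minus strand) are SNORA genes of ordinary length that were among those with the smallest adjusted p values. SNORA53 (chr12:98599635-98599883, plus strand) is shown because a single library held nearly all of its reads, and SCARNA13 (chr14:95533355-95533629, minus strand) as a Cajal body RNA with an ACA end. Capitals mark an ACA that lies exactly 3 bases before the annotated 3′ end, and the ANANNA match nearest the middle of the RNA where one lies within 15% of the length from the middle. They are letter matches, not mapped boxes.
SNORA73A: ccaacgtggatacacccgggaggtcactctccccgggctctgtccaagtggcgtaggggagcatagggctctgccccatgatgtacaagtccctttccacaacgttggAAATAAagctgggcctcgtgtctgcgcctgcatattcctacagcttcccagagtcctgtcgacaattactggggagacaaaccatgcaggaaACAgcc
SNORA73B: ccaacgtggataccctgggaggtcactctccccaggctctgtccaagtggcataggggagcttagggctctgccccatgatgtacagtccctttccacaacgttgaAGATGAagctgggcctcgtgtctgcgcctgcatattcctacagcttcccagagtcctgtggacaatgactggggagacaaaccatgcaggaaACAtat
SNORA48: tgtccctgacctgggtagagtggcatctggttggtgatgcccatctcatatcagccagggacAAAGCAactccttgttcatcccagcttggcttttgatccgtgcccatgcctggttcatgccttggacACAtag
SNORA2C: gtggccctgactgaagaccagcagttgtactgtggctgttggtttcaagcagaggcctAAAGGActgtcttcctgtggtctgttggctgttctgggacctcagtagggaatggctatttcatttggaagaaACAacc
SNORA8: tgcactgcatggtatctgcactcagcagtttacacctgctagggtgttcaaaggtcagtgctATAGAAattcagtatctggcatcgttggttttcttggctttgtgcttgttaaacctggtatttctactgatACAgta
SNORA53: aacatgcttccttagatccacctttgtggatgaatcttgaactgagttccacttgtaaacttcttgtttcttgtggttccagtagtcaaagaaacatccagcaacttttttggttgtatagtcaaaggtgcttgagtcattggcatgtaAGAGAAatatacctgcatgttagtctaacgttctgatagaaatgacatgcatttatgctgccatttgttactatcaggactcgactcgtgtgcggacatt
SCARNA13: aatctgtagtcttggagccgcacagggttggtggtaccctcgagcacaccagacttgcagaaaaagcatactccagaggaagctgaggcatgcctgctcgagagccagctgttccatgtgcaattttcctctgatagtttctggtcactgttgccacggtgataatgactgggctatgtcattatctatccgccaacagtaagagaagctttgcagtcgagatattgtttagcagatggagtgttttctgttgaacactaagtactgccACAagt

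An ACA 3 bases before the 3′ end was found in 113 of 150 SNORA transcripts (75.3%) and 14 of 25 SCARNA transcripts (56%). The same letters stood there in 1.39% of 288 SNORD (C/D box) transcripts and in 2.85% of 10824 other transcripts of 100 to 300 bases. ANANNA near the middle is a loose pattern: it was found in 94.7% of SNORA transcripts, 50% of SNORD transcripts and 65% of the other transcripts. Both features together were present in 73.3% of SNORA transcripts, 0% of SNORD transcripts and 1.99% of the others. Only the strand of the transcript was searched. SNORA53, whose annotated end has no ACA at that place, thus differs from SNORA48, SNORA2C and SNORA8 in the letters shown. The genes had a median annotated length of 134 bases, between 68 and 701. By GENCODE 29, 104 lay in an intron of a host gene, 57 touched a host exon and 14 had no host on their strand. Hosts numbered 122, and 128 genes lay in protein-coding hosts and 24 in long noncoding RNA hosts.

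The targeted gene was measured first. STAG2 had 239, 166 and 181 CPM (counts scaled to a common library size, here by the trimmed mean of M values, TMM) in the knockout libraries, against 315 and 537 CPM in the wild-type libraries. The STAG2 log2 change was -1.13 (SE 0.26, edgeR adjusted p 0.0218), so RNA of the gene was lower but still present, and the call was lost without knockout library 2 or 3 (log2 changes -1.03 and -1.09). In MOLT-14 STAG2 had 164 CPM in the transduced library, against 1.35 CPM in the empty-vector library. Of 7 T-lineage markers, 6 or 7 reached 1 CPM in each library, and their summed level, here and for the other marker lists in CPM of the library total, was 1790 to 2010 CPM in knockout, 2135 and 2321 CPM in wild type, 1936 CPM with STAG2 and 1961 CPM with the empty vector. CD5 was the 1 T-lineage marker called lower in knockout (log2 change -0.95, edgeR adjusted p 0.0041), and the part of these markers in the results was not tested. Of the 4 B-lineage markers 1 (CD79A) reached 1 CPM in every library. The 3 erythroid markers had 0 counts in all 7 libraries, and no myeloid marker reached 1 CPM. CD79A had 3.57, 5.63 and 17.8 CPM in knockout, against 35.2 and 6.57 CPM in wild type. The 4 stromal and epithelial markers summed to 6.62, 7.40 and 8.89 CPM in knockout, against 22.4 and 7.24 CPM in wild type, mostly from KRT18 in both groups. In MOLT-14 they summed to 1.18 CPM with STAG2, against 1.45 CPM with the empty vector. For CD79A and for these markers wild-type library 1, which also held the largest share of SNORA and SCARNA counts, was the highest PF-382 library, and the part of this in the results was not tested. Depth was 65262329, 93970572 and 81304948 gene counts in knockout, 32609485 and 33145516 in wild type, 45013450 with STAG2 and 38678382 with the empty vector. The mean fragment length implied by the deposited FPKM was 198.5, 202 and 210 bases in knockout, against 167 and 179 bases in wild type, and 172 bases with STAG2, against 169 bases with the empty vector. The PF-382 groups thus did not overlap in fragment length, while the MOLT-14 libraries were close.

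SNORA and SCARNA genes together took 0.167%, 0.170% and 0.172% of all gene counts in the knockout libraries, against 0.446% and 0.270% in the wild-type libraries. The mean share was 0.170% ± 0.0025 in knockout (SD, n = 3) and 0.358% ± 0.125 in wild type (SD, n = 2). The 3 knockout libraries were close to each other and all lay below both wild-type libraries, which stood apart from each other. An exact two-sided permutation test of the share gave p = 0.2, the smallest that 10 splits of 3 against 2 libraries allow. SNORA genes alone took 0.0773%, 0.0709% and 0.0757% in knockout, against 0.248% and 0.138% in wild type. SCARNA genes took 0.0901%, 0.0993% and 0.0966% in knockout, against 0.198% and 0.132% in wild type. The ratio of mean shares, knockout over wild type, was 0.387 for SNORA and 0.578 for SCARNA. In these bulk libraries fewer cells with a given RNA and less of it per cell cannot be told apart.

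In MOLT-14 the share was 0.257% with STAG2 (exact binomial 95% interval 0.255% to 0.258%), against 0.173% with the empty vector (0.172% to 0.175%). The intervals cover counting error only. SNORA genes took 0.159% with STAG2, against 0.0806% with the empty vector. SCARNA genes took 0.0975% with STAG2, against 0.0926% with the empty vector, a far smaller step. There is 1 library per MOLT-14 group, so none of these differences has a replicate check. All small RNA genes (snRNA, snoRNA, scaRNA, ribozyme and miscellaneous RNA) had the same order, with 9.27% of the counts with STAG2, against 4.87% with the empty vector. In PF-382 they took 11.96%, 13.98% and 13.7% in knockout, against 21.0% and 14.9% in wild type. Of the small RNA counts, SNORA and SCARNA genes made up 1.40%, 1.22% and 1.26% in knockout, against 2.13% and 1.81% in wild type. Within small RNAs the order in MOLT-14 was the opposite, with 2.77% with STAG2, against 3.56% with the empty vector.

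**Figure D1:**
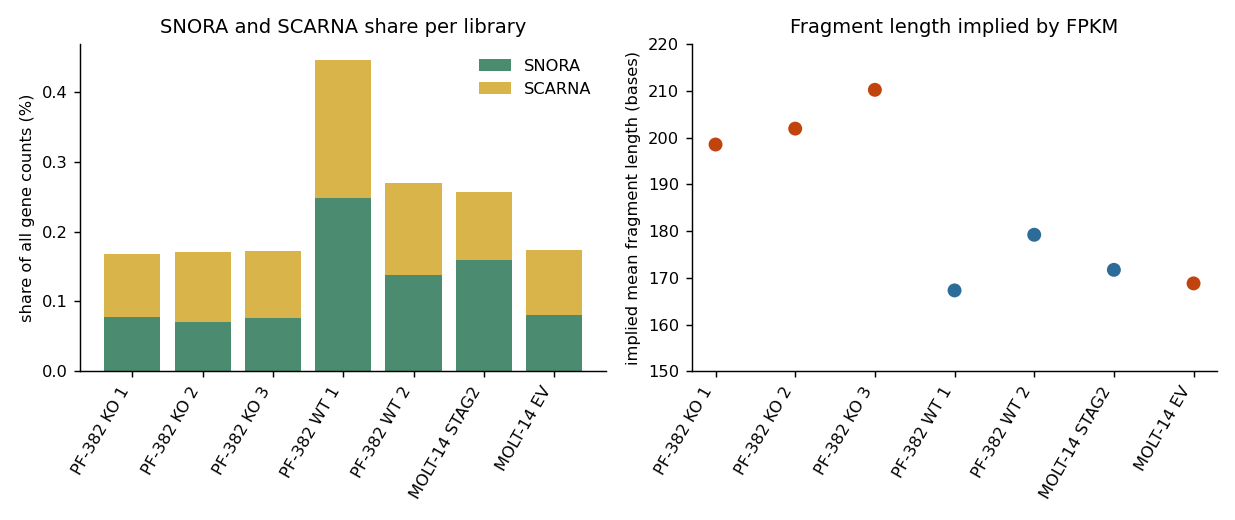
Left, stacked bars of the share of all gene counts (%) taken by SNORA and SCARNA genes in each of the 7 libraries; right, the mean fragment length (bases; axis starts at 150) implied by the deposited FPKM in the same libraries, with red points for knockout and empty vector and blue points for wild type and STAG2. The knockout shares lie between 0.167% and 0.172%, below 0.446% and 0.270% in wild type, and the knockout fragment lengths lie between 198.5 and 210 bases, above 167 and 179 bases.

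A few RNAs held most of the counts. SNORA73A was the most abundant member in 6 libraries, with 24.8%, 23.2% and 25.05% of the members' counts in knockout, 24.6% and 27.7% in wild type and 34.9% with STAG2. With the empty vector SCARNA2 came first, with 28.4%. The top 5 members together held 73.1% to 81.4% of the members' counts in each library. Per 100 annotated bases, the mean level over the PF-382 libraries was 298 CPM for SNORA73A, 153 for SNORA73B, 129.1 for SCARNA10, 75.1 for SCARNA2, 62.2 for SCARNA12, 53.2 for SCARNA7, 42.1 for SNORA48 and 38.1 for SNORA63. At the other end, 36 of the 175 members had no count in any library. Counts above 0 were seen for 98, 99 and 98 members in knockout, against 122 and 102 in wild type, although the knockout libraries were the deeper ones. In MOLT-14 they were seen for 101 members with STAG2, against 96 with the empty vector.

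Of the 175 members, 69 passed the filter on low counts and were tested in PF-382, and 106 did not. Of the 69, 59 were lower and 0 were higher in knockout by edgeR's quasi-likelihood test at an adjusted p under 0.05. Over all 17442 genes tested, 14.6% were called lower and 15.8% higher, 30.4% in all. The log2 change, knockout over wild type, was below 0 for all 69, so none was higher at an unadjusted p either, and DESeq2, run on every member with a count in PF-382 and so on more than these 69, called 71 lower and 0 higher. The median log2 change was -1.91 over the members tested and -0.02 over all genes tested. A member could pass the filter through its wild-type level alone. Of the 53 members at the filter level in knockout libraries too, 47 were lower, with a median log2 change of -1.77. Every knockout library lay below both wild-type libraries for 61 of the 69 members, against 29.4% of all genes tested (59.8% had groups that did not overlap in either direction). Among SNORA genes 50 of 56 tested were lower (median log2 change -2.08), and among SCARNA genes 9 of 13 (median -1.43).

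The median difference was larger in the shorter length classes, and other short RNAs were lower too. The median log2 change was -2.65 for the 8 members tested of under 130 bases (7 lower), -1.99 for the 38 of at least 130 and under 140 bases (35 lower), -1.88 for the 9 of 140 to 198 bases (7 lower) and -1.33 for the 14 of 201 bases or more (10 lower). These classes include members that passed the filter, at 0.153 CPM, through their wild-type level alone. Under 130 bases these were SNORA26, SNORA11F, SNORA63B and SNORA37, with knockout means of 0.045, 0.040, 0.101 and 0.080 CPM. At 201 bases or more SNORA74B (0.142 CPM) passed in this way. The part of this selection in the order of the classes was not tested. Among genes of at most 300 bases that were no members, 166 were tested, 77 were lower and 9 higher, with a median of -1.66. SNORD genes had 12 lower and 2 higher of 19 tested (median -2.11), spliceosomal and other snRNA genes 30 lower and 6 higher of 45 (median -3.10), and miscellaneous RNA genes 7 lower and 0 higher of 28. Protein-coding genes had a median of 0.09. The longer fragments of the knockout libraries stand beside these values. The part of fragment length in them was not tested and cannot be told apart from that of the knockout, since the groups do not overlap in it. The deposited FPKM implied effective lengths far under the annotated ones, 27.9 to 50.8 bases for SNORA73A, annotated at 206, and 1.94 to 7.11 bases for SNORA63, annotated at 132. For that reason counts and CPM were used here, not the length-scaled values.

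**Figure D2:**
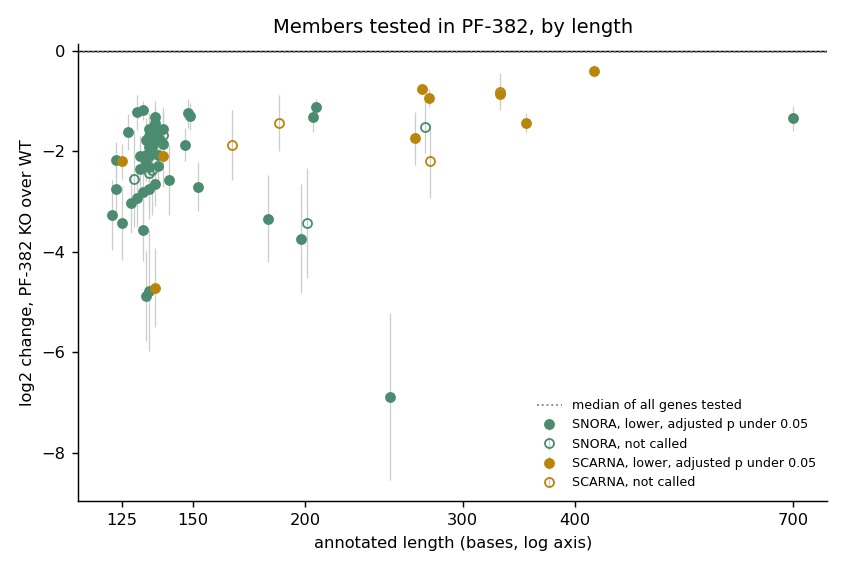
The log2 change, knockout over wild type (y axis, edgeR; bars are the SE), of the 69 members tested in PF-382 against annotated length in bases (log axis), with SNORA in green, SCARNA in gold and open points for members not called. Every point lies below 0, with a median of -2.65 under 130 bases and -1.33 at 201 bases or more. Some members passed the filter through their wild-type level alone.

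The direction of the most abundant members depends on scaling. When the scaling factors were taken from small RNA genes only, an alternative added after seeing the data, 7 members were lower and 0 higher, and their median log2 change was -0.36 while that of all genes was 1.32. Under that scaling the log2 changes of SNORA73A, SNORA73B, SNORA63, SNORA79B, SNORA57, SNORA17B, SCARNA2, SCARNA7, SCARNA12, SCARNA13, SCARNA10, SCARNA6, SCARNA16 and SCARNA1 were above 0. Lower values of these genes are therefore values relative to the bulk of genes, and their sign changed under this scaling. By summed counts the order was not the same as under this scaling. SNORA and SCARNA genes together made up 1.40%, 1.22% and 1.26% of small RNA counts in knockout, against 2.13% and 1.81% in wild type. Whether these genes were lower relative to other small RNAs thus depends on the measure.

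Among the box H/ACA RNAs of the U17 family, SNORA73A had 413, 397 and 443 CPM in knockout, against 1054 and 760 CPM in wild type. Its log2 change was -1.12 (SE 0.17, edgeR adjusted p 0.0066). SNORA73B had 186, 191 and 213 CPM in knockout, against 668 and 307 CPM in wild type. Its log2 change was -1.31 (SE 0.30, adjusted p 0.0218). The groups did not overlap for either copy, and the wild-type libraries differed more for SNORA73B. The call of SNORA73B was lost when any 1 of the knockout libraries was left out, while that of SNORA73A held in all 5 such fits.

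SNORA47, in an intron of ZBED3, had the smallest adjusted p of the members. It had 6.73, 7.12 and 6.28 CPM in knockout, against 29.03 and 17.1 CPM in wild type (log2 change -1.78, SE 0.24, adjusted p 0.0050). SNORA71A, in an intron of the noncoding RNA SNHG17, had 10.7, 7.84 and 5.98 CPM in knockout, against 28.7 and 24.5 CPM in wild type (log2 change -1.70, SE 0.25, adjusted p 0.0063). SNORA8 had 1.77, 1.12 and 1.36 CPM in knockout, against 5.42 and 4.79 CPM in wild type (log2 change -1.85, SE 0.28, adjusted p 0.0065). For SNORA71A and SNORA8 the wild-type libraries lay close together and well above all knockout libraries. SNORA2C had 2.84, 2.03 and 1.56 CPM in knockout, against 13.3 and 7.76 CPM in wild type (log2 change -2.30, SE 0.35, adjusted p 0.0066). SNORA48 had 32.7, 24.4 and 24.03 CPM in knockout, against 135.8 and 67.2 CPM in wild type (log2 change -1.91, SE 0.30, adjusted p 0.0072). These 5 calls held when each library in turn was left out, and so did those of SNORA63 (log2 change -1.18), SNORA54 (-2.16) and SNORA71D (-1.81).

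SNORA79B (log2 change -1.24), SNORA52 (-2.32), SNORA57 (-1.30) and SNORA17B (-1.22, and -1.31 for its other entry) were lower as well, but each lost its call in at least 1 of the fits that left out a library. SNORA52 lost it without knockout library 3, SNORA57 without knockout library 2 or 3, SNORA79B without knockout library 2 or 3 or wild-type library 1 (log2 change -0.83), and SNORA17B without any 1 of the knockout libraries or wild-type library 1 (-0.67). SNORA17B shares its position with that other entry, so that reads are divided between them. SNORA71A and SNORA71D, which lie in the same host, share 113 of 136 aligned positions. In all, 38 of the 69 members tested had fractional counts in PF-382, which arise where reads match several genes. Of the 31 with whole counts in all 5 libraries, 25 were lower, with a median log2 change of -2.197.

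Of the small Cajal body RNAs, SCARNA12, which carries both C/D and H/ACA domains, had 130 to 133 CPM in the 3 knockout libraries, against 220 and 225 CPM in wild type (log2 change -0.76, SE 0.10, edgeR adjusted p 0.0054). SCARNA9, of the C/D type and a guide for the U2 spliceosomal RNA, had 10.5, 8.43 and 7.002 CPM in knockout, against 23.6 and 22.9 CPM in wild type (log2 change -1.43, SE 0.20, adjusted p 0.0053). SCARNA7, also of the C/D type, had 143, 122 and 132 CPM in knockout, against 218 and 263 CPM in wild type (log2 change -0.86, SE 0.14, adjusted p 0.0075). In all 3 the replicates of each group lay close together and the groups were apart. SCARNA13, of the H/ACA type, had 72.6, 61.2 and 50.9 CPM in knockout, against 128 and 107 CPM in wild type (log2 change -0.93, adjusted p 0.0113). SCARNA22, in an intron of NSD2, had 2.39, 1.36 and 1.17 CPM in knockout, against 8.13 and 6.90 CPM in wild type (log2 change -2.197, adjusted p 0.0075). The calls of SCARNA12, SCARNA9, SCARNA7, SCARNA13 and SCARNA22 held when each library was left out.

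SCARNA2, the longest of the named members at 420 bases, changed least, with 261, 299 and 280 CPM in knockout, against 370 and 366 CPM in wild type. Its log2 change was -0.39 (SE 0.12, edgeR adjusted p 0.0499), and this call was lost whichever library was left out. SCARNA10, which guides both kinds of modification on a spliceosomal RNA, had 262, 350 and 371 CPM in knockout, against 818 and 329 CPM in wild type. Its groups overlapped, and it was not called (log2 change -0.81, adjusted p 0.137). SCARNA6 (log2 change -1.74, adjusted p 0.0483) and SCARNA5 (-2.196, adjusted p 0.0637) lie in introns of ATG16L1, and of these SCARNA6 passed the threshold. SCARNA16 (-1.43, adjusted p 0.0974) and SCARNA1 (-1.88, adjusted p 0.0851) did not pass it, and SCARNA21 (-2.09, adjusted p 0.0450), with at most 16 counts in a PF-382 library, did. The calls of SCARNA6 and SCARNA21 were lost without any 1 of the knockout libraries, and also without wild-type library 1 for SCARNA6 (log2 change -0.40) and wild-type library 2 for SCARNA21 (-1.57). Without wild-type library 1 the log2 changes of SCARNA10, SCARNA16 and SCARNA1 turned to 0.0069, 0.0458 and 0.0798.

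**Figure D3:**
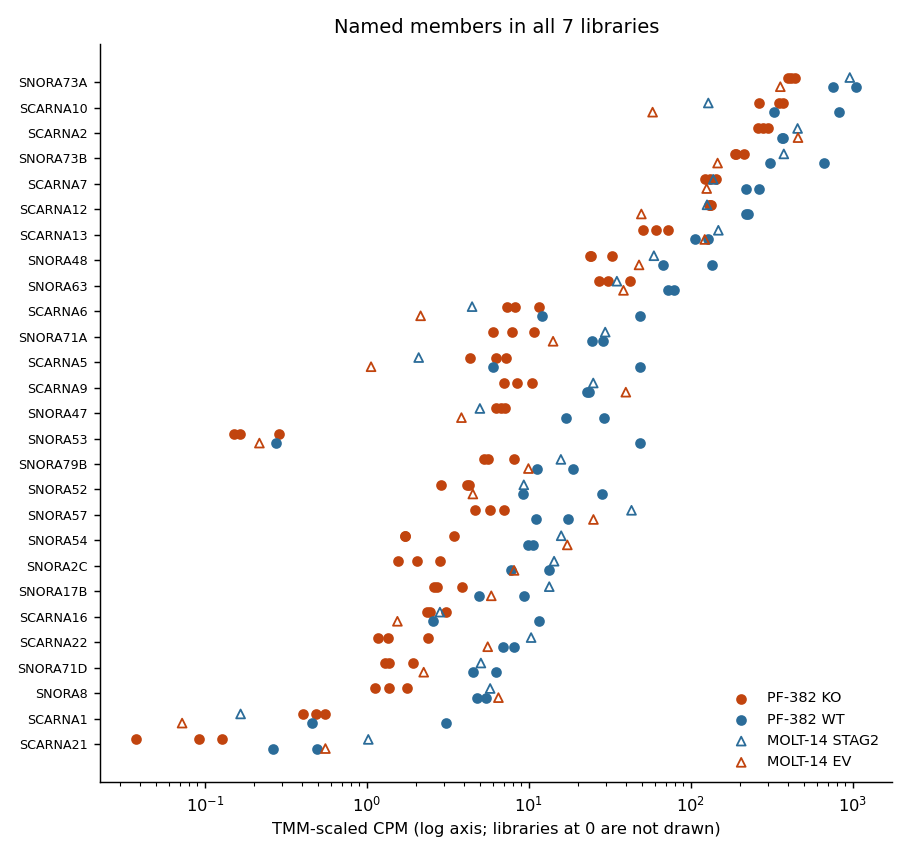
TMM-scaled CPM (x axis, log scale) of the 27 named members in the 7 libraries, with filled circles for PF-382 (red knockout, blue wild type) and open triangles for MOLT-14 (blue STAG2, red empty vector); libraries at 0 are not drawn. Knockout circles lie left of both wild-type circles for most members, while 1 wild-type library stands far right of the other for SNORA53 (48.8 CPM, against 0.28 CPM), SCARNA5 and SCARNA6.

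The wild-type libraries were not alike. Wild-type library 1 exceeded wild-type library 2 for 62 of the 69 members tested, with a median ratio of 1.90, while over all genes tested the median ratio was 1.01. For 11 members the ratio was at least 5. SNORA53, hosted by SLC25A3, had 10, 27 and 13 counts in knockout, against 1656 and 9 counts in wild type, with 0 counts with STAG2 and 9 with the empty vector. SNORA64, hosted by RPS2, had 10.3, 25.5 and 10.4 counts in knockout, against 335.6 and 10.4 counts in wild type. SNORA81, hosted by EIF4A2, had 220.7 counts in wild-type library 1 and 0 in the 6 others, and was not tested. SNORA64 and SNORA81 were picked after their values were seen. The log2 change of -6.88 of SNORA53 therefore rests on 1 library, and its call was lost without that library (log2 change -0.42), and also without any 1 of the knockout libraries.

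Wild-type library 2 alone still lay above every knockout library for 61 of the 69 members, and its median ratio to the knockout mean was 2.44. The share of all genes for which this library alone did so is not at hand. Both wild-type libraries did so for 29.4% of all genes tested. The 69 include members that passed the filter through their wild-type level alone. Without wild-type library 1, 35 members were lower and 0 higher, with a median log2 change of -1.26. Without wild-type library 2, a member could pass the filter through wild-type library 1 alone. The count of lower members in that fit thus follows in part from the filter and is not given. Leaving out knockout library 1, 2 or 3 gave 39, 28 and 26 lower members, and 0 higher each time. The shares of all genes called in the fits without a library are not at hand. The 14.6% lower and 15.8% higher given above are of the fit of all 5 libraries, so these counts have no background beside them. Of the 59 lower members, 23 were called in all 5 fits that left out a library, and 24 lost their call without wild-type library 1.

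Host genes did not follow their RNAs. The members tested paired with a tested host in 67 cases, and in all 67 the member's log2 change lay below its host's, with a median difference of -2.21. One pair is SCARNA2 (420 bases) with AL356488.2, a noncoding RNA entry of 427 bases that starts at the same base and covers it. That pair (-0.39 and -0.27) therefore does not compare an RNA with a separate host. Of the 57 lower members among them, the host was higher for 16, lower for 2 and not called for 39. EIF4A1, a translation initiation helicase and the host of SNORA48 and SNORA67, had 817, 872 and 888 CPM in knockout, against 390 and 380 CPM in wild type (log2 change 1.16, SE 0.13, edgeR adjusted p 0.0033), while SNORA48 was lower. SNHG17, the host of SNORA71A, SNORA71C and SNORA71D, was higher too (log2 change 0.69, adjusted p 0.0158), a call lost without knockout library 1 or 2 (0.59 and 0.70). CCNB1IP1 was lower (log2 change -0.84, adjusted p 0.0040) together with SNORA79B in its intron, and SNHG8 (-0.63, adjusted p 0.0336) together with SNORA24. RCC1, the host of the U17 pair, was not called (log2 change 0.24, adjusted p 0.422), and passed without wild-type library 2 (0.67). Also not called were ZBED3 (-0.14), EIF4A2 (-0.05), KPNA4 (0.06), PHB2 (0.28) and RPLP2 (-0.22).

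Across the 67 pairs Pearson's r between the log2 changes was -0.12 and Spearman's rho -0.15, as a description, since pairs can share a host and all share the same 5 libraries. Over the 115 hosts tested, counted once each, 30 (26.1%) were higher and 10 (8.7%) lower. Beside this, 15.8% of all genes tested were higher and 14.6% lower. Of the protein-coding genes tested, 19.9% were higher and 12.4% lower. With upper-quartile scaling the same hosts gave 24 higher and 24 lower, and with factors from protein-coding genes only 24 higher and 17 lower, so the balance of host directions depends on scaling. Leaving out a knockout library gave 21 to 23 called hosts in place of 40.

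**Figure D4:**
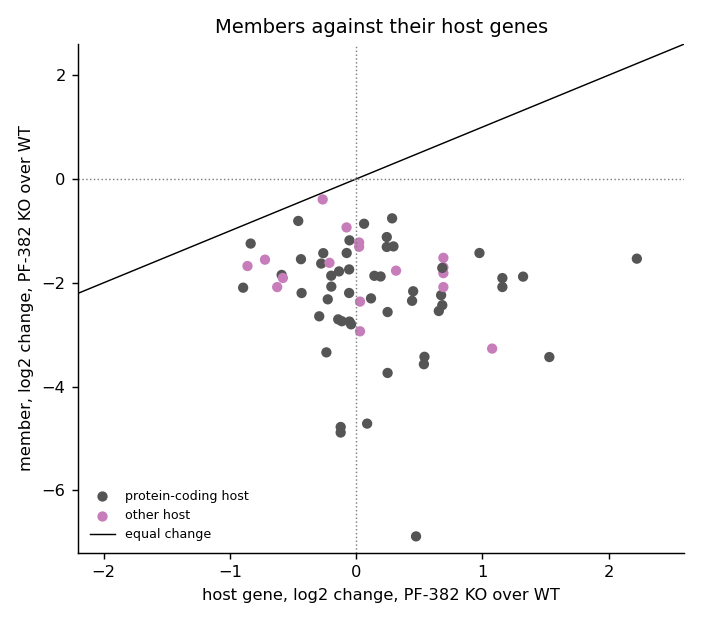
The log2 change, knockout over wild type, of each member (y axis) against that of its host gene (x axis) for the 67 pairs tested in PF-382, with grey points for protein-coding hosts, pink for other hosts and the diagonal for equal change. All 67 points lie below the diagonal, with a median difference of -2.21.

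Genes of the proteins that bind these RNAs were higher or not called. Of the 4 H/ACA core protein genes 3 were higher. DKC1, the pseudouridine synthase, had 112.6, 99.9 and 94.7 CPM in knockout, against 45.8 CPM in each wild-type library (log2 change 1.16, SE 0.12, edgeR adjusted p 0.0031). NHP2 had 121, 124 and 119 CPM in knockout, against 42.5 and 45.2 CPM in wild type (log2 change 1.46, SE 0.11, adjusted p 0.0022). NOP10 was higher as well (log2 change 0.76, adjusted p 0.0059). GAR1 had 12.8, 8.66 and 9.34 CPM in knockout, against 5.27 and 6.597 CPM in wild type, and did not pass the threshold (log2 change 0.79, adjusted p 0.0519). All 4 core genes stood above both wild-type libraries in every knockout library. Of all genes tested, 59.8% had groups that did not overlap in either direction, and 29.4% had every knockout library below both wild-type libraries.

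Among the 5 assembly factor genes SHQ1, a chaperone of DKC1 (log2 change 1.15, adjusted p 0.0176), and the ATPases RUVBL1 (0.95) and RUVBL2 (0.85) were higher, while NAF1 (0.06, and -0.104 with upper-quartile scaling) and PIH1D1 (0.20) were not called. The call of SHQ1 was lost without knockout library 1 or 2 (0.99 and 1.15) and that of RUVBL2 without knockout library 2 (0.78). GAR1 passed without wild-type library 2 (0.98). Of 18 Cajal body and SMN complex genes 9 were higher and 0 lower, with the smallest adjusted p for NOLC1, which binds box H/ACA and C/D particles (log2 change 1.31), GEMIN5, the SMN complex subunit that recognises snRNAs (1.005), and TGS1, which trimethylates RNA caps (0.73). COIL, the Cajal body scaffold (-0.17), and WRAP53, which brings these RNAs to the Cajal body (0.29), were not called. Of 12 stand-alone pseudouridine synthase genes, which need no guide RNA, 6 were higher and 0 lower, and those with the smallest adjusted p were PUS7 (log2 change 1.499), PUS7L (1.34) and PUSL1 (1.14). At an unadjusted p under 0.05, USPL1 (-0.31) was the 1 lower gene of the Cajal body and SMN list, and the core, assembly and synthase lists had 0 lower. Beside the edgeR counts of these lists, 15.8% of all genes tested and 19.9% of protein-coding genes tested were higher. The lower shares were 14.6% and 12.4%. DESeq2 called 37 higher and 3 lower over all these lists.

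Of 20 genes of small RNA trimming and decay 7 were higher and 3 lower. The exosome genes EXOSC4 (log2 change 1.39) and EXOSC2 (0.68) and the exosome cofactor MPHOSPH6 (1.03) were higher. RBM7 (-0.65) and ZCCHC8 (-0.74), both of the nuclear exosome targeting complex, and ZFC3H1 (-0.73), of the poly(A) exosome targeting connection, were lower. The calls of ZCCHC8 and ZFC3H1 were lost without any 1 of the knockout libraries, that of ZFC3H1 also without wild-type library 2 (-0.38), and that of RBM7 without knockout library 1 or 2 (-0.63 and -0.62). TERC, the telomerase RNA, which ends in an H/ACA domain, had 11.9, 8.55 and 5.93 CPM in knockout, against 18.4 and 6.63 CPM in wild type, with overlapping groups (log2 change -0.51, adjusted p 0.429). TERT, the telomerase enzyme, was not called either (log2 change -0.29, adjusted p 0.654). Over all 61 of these genes 28 were higher and 3 lower. Beside this, 15.8% of all genes tested were higher and 14.6% lower, and of protein-coding genes tested 19.9% and 12.4%. Leaving out a knockout library gave 16 to 19 called in place of 31. STAG1, the paralogue of STAG2, was higher (log2 change 1.36, adjusted p 0.0022).

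**Figure D5:**
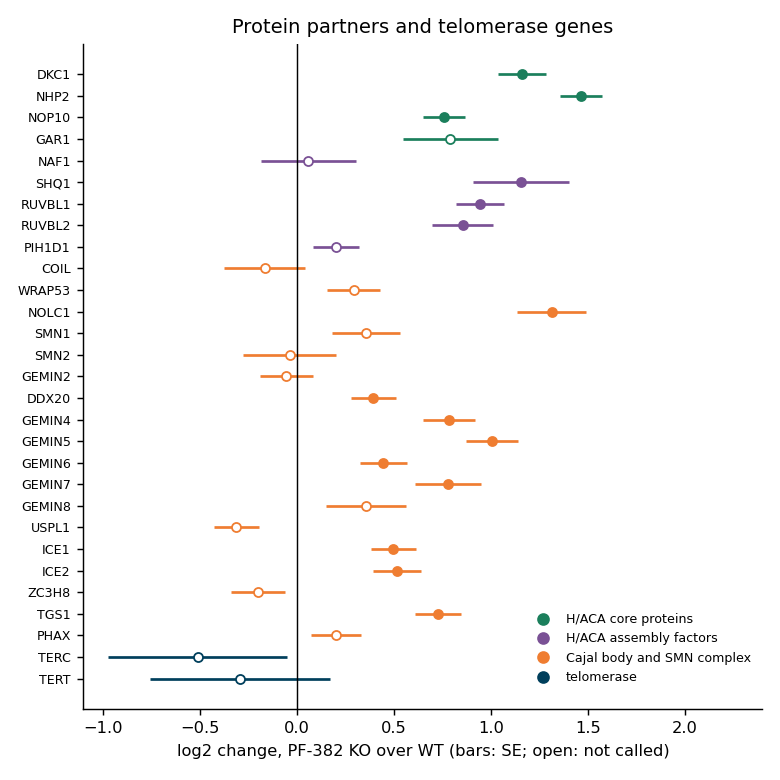
The log2 change, knockout over wild type (x axis; bars are the SE), of 29 genes of the H/ACA core, assembly, Cajal body and SMN, and telomerase lists tested in PF-382; open points were not called. DKC1, NHP2 and NOP10 lie right of 0 at 1.16, 1.46 and 0.76, and TERC and TERT lie left of 0 and were not called.

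In MOLT-14, 27 members had at least 5 CPM in either library. Of these, 9 were at least 2-fold higher and 0 at least 2-fold lower with STAG2, where 1.17% of the 11442 genes compared were at least 2-fold higher and 0.769% at least 2-fold lower. The log2 ratio was above 0 for 22 of the 27, against 57.6% of all genes compared, and its median was 0.88 for the members and 0.05 for all genes. These are values of 2 libraries, with no test. SNORA73A had 959 CPM with STAG2, against 357 CPM with the empty vector, a ratio of 2.68 (exact binomial 95% interval 2.63 to 2.74, counting error only). SNORA73B had 375 CPM with STAG2, against 146 CPM with the empty vector, a ratio of 2.56. SCARNA12 had 126 CPM with STAG2, against 49.5 CPM with the empty vector, a ratio of 2.54. SNORA17B (2.27), SNORA71D (2.23), SCARNA10 (2.21), SNORA49 (2.11), SNORA71A (2.09) and SNORA52 (2.05) completed the 9.

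A further 5 members had ratios below 1. SCARNA9 had 25.01 CPM with STAG2, against 39.7 CPM with the empty vector, a ratio of 0.630 (interval 0.582 to 0.680). The ratio was 0.890 for SNORA8, 0.911 for SNORA63, 0.917 for SNORA54 and 0.994 for SCARNA2, and the intervals of SNORA8 (0.744 to 1.06), SNORA54 (0.824 to 1.02) and SCARNA2 (0.974 to 1.01) include 1. The RNAs with the 2 extremes of ratio were thus the U17 pair and a C/D-type Cajal body RNA. Dividing by library totals in place of TMM left 3 members past 2-fold, and lowering the minimum to 1 CPM gave 17 of 46. The hosts of all members held 0 genes past 2-fold higher and 1 past 2-fold lower of 109 compared. None of the 61 partner genes passed 2-fold, and their median log2 ratio was 0.08. TERC, the telomerase RNA with an H/ACA domain, came near that limit. It had 18.4 CPM with STAG2, against 9.57 CPM with the empty vector, a ratio of 1.92 (interval 1.70 to 2.18).

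Set side by side, the log2 value, knockout over wild type in PF-382 and STAG2 over empty vector in MOLT-14, was -1.12 and 1.42 for SNORA73A, -1.31 and 1.36 for SNORA73B, and -0.76 and 1.35 for SCARNA12. It was -1.43 and -0.67 for SCARNA9, -1.85 and -0.17 for SNORA8, and -2.16 and -0.12 for SNORA54. The first 3 had the lower value in the library group with less STAG2 RNA in both lines, and the last 3 had it so in PF-382 but not in MOLT-14. SNORA63 (-1.18 and -0.14) and SCARNA2 (-0.39 and -0.0085) went with the last 3. These RNAs were picked at the extremes of the MOLT-14 ratio, so their split in MOLT-14 follows from the choice. Of the 27 members compared there, 22 had a log2 ratio above 0. The lines share no library, but small RNA genes as a whole took the larger share in wild type and with STAG2, and the part of that shift in these values was not tested.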

How the data were processed

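Gene tables of 7 total RNA libraries were used. Per the submitters' processing notes, reads were handled with STAR and RSEM on GRCh38 (hg38), while versions, annotation release and strand setting are not given in the sources used here. Per the file headers, the deposited tables hold expected counts, RSEM's unscaled estimate of a gene's reads. Beside them the authors deposited FPKM, used here only for implied lengths, and TPM, which was not used. Expected counts were rounded, and 91.8% to 93.3% of them were whole already. The 92 spike-in features, with 3 counts in 1 library and 0 in the others, were left out. GENCODE 29 held all 175 members with the same gene identifier and gave positions, lengths, hosts and sequences.

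The PF-382 fit used edgeR 4.0.16 in R 4.3.3 (TMM, filterByExpr with 0.153 CPM as its level, quasi-likelihood test, two-sided), over all 17442 genes that passed, with Benjamini-Hochberg adjustment and a threshold of 0.05. All adjusted p values are of this kind. The common biological coefficient of variation was 0.242. Standard errors were the size of the log2 change over the root of edgeR's F. The fit was tested on simulated data in which every gene had the same biological coefficient of variation. That setting does not copy wild-type libraries as unlike as those seen here for the members, so it does not cover the members' calls. DESeq2 1.42.0, other scalings and filters, and leaving out each library were the alternatives. MOLT-14, with 1 library per group, had no test; its log2 ratios are of CPM on TMM totals, with 2 as the prior count. A floor of 3 counts makes 0.0321 to 0.0921 CPM. Such floors and the intervals hold for counting error alone, because reads counted without molecular identifiers need not be separate molecules.

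A host is a gene on the same strand that contains the member and is no small RNA gene, protein-coding first, then the shortest. Fragment length was solved from FPKM and counts of 116 to 171 single-transcript coding genes per library. Sequences were aligned with Biopython 1.88. Named members were the 10 SNORA genes with the highest mean CPM, the 8 called members with the smallest adjusted p among those of at least 1 CPM, SCARNA genes of at least 1 CPM in any library, and the 5 members with the largest MOLT-14 ratio each way. Named hosts and partner genes followed from the same rule. Members and lists were chosen with earlier results of these data known, so their pattern is no independent support.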

Additional observations from a re-analysis of the deposited data

How the results depend on the processing

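No member was called higher in knockout under any alternative run, although some log2 changes turned positive, as given below. Shares of all genes called in the alternative runs are not given here. The count of lower members, 59 as reported, was 59 with DESeq2 size factors, 61 with upper-quartile scaling, 60 with protein-coding TMM factors, 71 with DESeq2 and 75 without a filter. It was 39 with a filter of 1 CPM in 2 libraries and 25 with whole-count members only, where fewer genes or members were tested, and 7 with small RNA TMM factors. Leaving out each library gave 26 to 82; without a wild-type library, the lone one left is assumed to vary like the knockout libraries. Without a library, called partner genes numbered 16 to 40 (31 as reported) and called hosts 21 to 55 (40 as reported). The difference in share in PF-382, -0.188 percentage points as reported, was -0.276 to -0.0998 without each library. In MOLT-14 members past 2-fold, 9 as reported, numbered 8 with protein-coding factors, 9 with a prior count of 0.5, 3 with library totals and 17 at 1 CPM. The MOLT-14 difference in share, 0.0835 percentage points, was 0.0993 over protein-coding counts, 0.100 without other small RNAs, 0.0321 without the top member and -0.786 over small RNA counts.

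With small RNA TMM factors the log2 changes turned positive for SNORA73A (0.31), SCARNA10 (0.83), SCARNA2 (0.93), SNORA73B (0.28), SCARNA7 (0.40), SCARNA12 (0.55), SCARNA13 (0.44), SNORA63 (0.10), SCARNA6 (0.0395), SNORA79B (0.24), SNORA57 (0.17), SNORA17B (0.31), SCARNA16 (0.38) and SCARNA1 (0.0068). Other reversals were of values not called. NAF1 was -0.104 with upper-quartile scaling, -0.0349 with protein-coding factors and -0.0228 at 1 CPM. KANSL2 was -0.0450 with upper-quartile scaling, and without a filter EIF4A2 was 0.0258 and CEP295 0.0032. Over the fits without 1 library, the log2 change ran from -1.30 to 0.0069 for SCARNA10, -2.12 to 0.0458 for SCARNA16 and -2.65 to 0.0798 for SCARNA1, each with its highest value without wild-type library 1. It ran from -1.04 to 0.42 for TERC, -0.83 to 0.61 for TERT, -0.121 to 0.256 for NAF1, -0.0594 to 0.668 for RCC1, -0.302 to 0.0119 for ZBED3, -0.266 to 0.237 for EIF4A2 and -0.163 to 0.0560 for CEP295. The cause was not tested, beyond fewer samples or genes. No paired analysis was possible because the labels give no replicate numbers that the groups share. Of 106 untested members, 70 had counts but did not pass the filter, which SNORA81 failed with 220.7 counts in wild-type library 1 alone.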
